A study of Mus musculus with 16 samples.

Results

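The comparison described here asks what changed in mouse skin when MCPIP1 was lost from myeloid cells in addition to keratinocytes. It sets 4 EMdKO mice against 4 EKO mice, 8 of the 16 libraries of the study, and the members were taken by the labelled genotype alone. All 16 mice were 12 weeks old and homozygous for floxed Zc3h12a, the gene of MCPIP1, written Zc3h12a(loxP/loxP) in the labels. EKO mice also carried Krt14Cre(Tg/Wt), and EMdKO mice carried Krt14Cre(Tg/Wt) together with LysMCre(Tg/Wt). The other groups were 4 controls with the floxed gene and no Cre and 4 MKO mice with LysMCre(Tg/Wt) alone. MKO and control mice served here as a second measurement of what LysM-Cre added, since they share no animal with the 8 mice compared. The labels name separate mice in each group and give no strain beyond these alleles.

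MCPIP1, known too as Regnase-1, is an RNase that cleaves stem-loops in the mRNAs of inflammatory mediators and so limits how long these transcripts persist. Krt14 promoter activity marks basal keratinocytes of the epidermis and the hair follicle, while LysM-Cre is inserted into Lyz2, the lysozyme gene of macrophages and neutrophils. Skin macrophages take up debris and microbes through scavenger receptors, present antigen and secrete chemokines that draw in other leukocytes. In whole skin these cells are a small part of the RNA, and fewer cells of a type cannot be told apart from less RNA per cell.

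Each library was a count of reads per amplicon, 1 for each of 23930 targeted transcripts. The EKO libraries held 7810774 to 10924265 counts and the EMdKO libraries 8198367 to 12086327. Values are given as CPM, read counts divided by the scaled depth of each library. Log2 fold changes are EMdKO minus EKO ± SE from edgeR's quasi-likelihood fit of all 16 libraries, with Benjamini-Hochberg adjustment over the 13633 targets tested, and an adjusted p under 0.05 is called a change. The tissue label was checked against basal keratinocyte markers, whose 12 tested members summed to 7445 to 14915 CPM in EKO and 10509 to 13980 CPM in EMdKO. Skeletal muscle markers were also present, at 36141 to 84221 and 30548 to 70275 CPM.

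Of the 8 libraries, 2 stood apart. EKO mouse 1 had a low level of epidermal genes: Il1f6, which encodes IL-36 alpha, was at 0.516 CPM against 79.3 to 92.4 CPM in the other EKO mice, while its Zc3h12a level of 11.7 CPM was below every control. EMdKO mouse 3 had hair shaft genes at a mean log2 CPM of 6.34, against -1.08 to 0.39 in the other EMdKO mice and 0.95 to 6.17 in EKO. Values without these libraries are given where they bear on a result.

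Zc3h12a itself was lower in the double knockout. EKO mice 1 to 4 had 11.7, 7.07, 7.40 and 8.41 CPM, and EMdKO mice 1 to 4 had 5.47, 5.69, 5.71 and 4.41 CPM. The groups did not overlap, and an exact 2-sided permutation test over the mice gave p = 0.0286, the smallest that 4 against 4 allows. In the fit over all targets the difference of -0.70 ± 0.23 was not called (edgeR adjusted p = 0.672). Between MKO and control, where the keratinocytes keep the gene, the fitted difference was 0.10. The position of the amplicon relative to the floxed exons is not known from the sources at hand.

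Lyz2, the host gene of LysM-Cre, was at 147, 402, 537 and 395 CPM in EKO and at 188, 295, 248 and 191 CPM in EMdKO. The ranges overlapped through EKO mouse 1 (exact 2-sided permutation p = 0.171). Lyz2 was also lower in MKO than in control, at means of 218 and 395 CPM (exact 2-sided permutation p = 0.0286). Krt14 was at 676, 2396, 4127 and 2328 CPM in EKO and at 1218, 1836, 1305 and 2026 CPM in EMdKO, with overlapping ranges (exact 2-sided permutation p = 0.4).

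With LysM-Cre added, 2 genes rose past the threshold, and both encode surface receptors of myeloid cells. Marco encodes a scavenger receptor of macrophages that binds bacteria and particles, and Siglece encodes an inhibitory receptor of neutrophils and macrophages that recognises sialic acid. These 2 were 0.0147% of the targets tested, and 0% were called lower. At an unadjusted p under 0.05, 466 targets (3.42%) were higher in EMdKO and 433 (3.18%) lower. DESeq2, the tool named in the submitters' processing notes, called 9 genes, 7 higher and 2 lower.

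Marco was nearly absent from EKO skin, at 0.206, 0.0872, 0 and 0.131 CPM, and reached 9.94, 8, 8.37 and 3.89 CPM in EMdKO mice 1 to 4. The EKO values come from 4 reads in all and the EMdKO values from 311. A library without a read may still hold a transcript at the level of 3 reads, 0.364 CPM in EKO mouse 3. The ratio of the counts per library total was 70.4, with an exact 95% interval of 27.2 to 260.0 that covers counting error only. In the fit the gene rose by 5.96 ± 0.55 (edgeR adjusted p = 9.85e-05), and it stayed called when any 1 of the 16 libraries was dropped. It stood at 0.0934 to 0.288 CPM in control and 2.66 to 8.09 CPM in MKO, so every mouse with LysM-Cre lay above every mouse without it.

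Siglece was at 1.34, 1.74, 1.46 and 2.10 CPM in EKO and at 8.29, 8.72, 11 and 5.36 CPM in EMdKO, with a wide gap between the groups. It rose by 2.33 ± 0.31 (edgeR adjusted p = 0.00806). The call was lost without EKO mouse 1 (edgeR adjusted p = 0.0664), 2 (0.059) or 3 (0.0709), while the fold change in those fits lay between 2.24 and 2.35. In control and MKO skin it was at 1.49 to 2.16 and 4.23 to 11.4 CPM.

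The promoters of these 2 genes, and of the interferon-inducible Gbp2b and the cytokine subunit gene Ebi3 described below, are shown. In both backgrounds, 18 targets lay wholly above in the group with LysM-Cre, and these 4 had the smallest p among those with a symbol. They were chosen after their values were seen, and other genes of that set, such as Cxcl13, are not shown. The windows run from 250 bases before to 50 after the start site, as given by RefSeq for GRCm38.p6. Capitals mark matches, on either strand, to a PU.1 core (GAGGAA), an NF-kB site (GGGA, any 4 bases, CC), a GAS element (TTC, any 3 bases, GAA) or an ISRE (GAAA, any pair of bases, GAAA).
Marco, chr1:120504975-120505274, minus strand: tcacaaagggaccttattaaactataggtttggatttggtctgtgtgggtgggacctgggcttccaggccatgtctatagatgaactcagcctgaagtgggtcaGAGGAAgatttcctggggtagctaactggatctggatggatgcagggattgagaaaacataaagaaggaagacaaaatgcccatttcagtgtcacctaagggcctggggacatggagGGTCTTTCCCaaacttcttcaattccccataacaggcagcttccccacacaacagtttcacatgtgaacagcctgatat
Siglece, chr7:43660112-43660411, minus strand: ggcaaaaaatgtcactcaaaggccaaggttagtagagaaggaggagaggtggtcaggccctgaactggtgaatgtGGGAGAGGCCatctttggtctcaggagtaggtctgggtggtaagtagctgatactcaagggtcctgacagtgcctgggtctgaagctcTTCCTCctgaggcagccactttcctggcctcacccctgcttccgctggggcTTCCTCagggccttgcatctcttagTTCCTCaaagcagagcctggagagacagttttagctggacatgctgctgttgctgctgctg
Gbp2b, chr3:142594597-142594896, plus strand: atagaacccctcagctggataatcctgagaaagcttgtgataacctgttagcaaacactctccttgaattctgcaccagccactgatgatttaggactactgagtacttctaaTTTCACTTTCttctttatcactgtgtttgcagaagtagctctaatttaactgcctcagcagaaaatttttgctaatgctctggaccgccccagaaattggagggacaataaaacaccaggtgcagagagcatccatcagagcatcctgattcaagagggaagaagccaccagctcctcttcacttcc
Ebi3, chr17:55952373-55952672, plus strand: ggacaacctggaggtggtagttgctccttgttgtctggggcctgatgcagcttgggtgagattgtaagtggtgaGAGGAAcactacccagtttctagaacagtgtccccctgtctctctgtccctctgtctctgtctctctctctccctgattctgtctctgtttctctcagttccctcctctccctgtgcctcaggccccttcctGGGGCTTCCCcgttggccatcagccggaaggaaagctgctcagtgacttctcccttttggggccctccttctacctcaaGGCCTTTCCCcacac

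The PU.1 core, bound by a factor that directs myeloid gene expression, matched once in Marco, 3 times in Siglece and once in Ebi3, and 28.3% of the 32851 promoters in the table hold it. The NF-kB letters matched once each in Marco and Siglece and 2 times in Ebi3, with 20.7% of all promoters. The ISRE letters, of the kind bound by interferon regulatory factors, matched once in Gbp2b, with 3.44% of all promoters, and the GAS letters (8.3%) matched in none of the 4 windows. No match overlapped another. These matches describe letters in a window and do not show binding.

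Gbp2b, an interferon-inducible guanylate-binding GTPase, was next in order of p. It was at 0.310, 0.523, 0.364 and 0.788 CPM in EKO, from 18 reads in all, and at 3.98, 4.85, 2.85 and 1.16 CPM in EMdKO, from 129. The groups did not overlap, yet the difference of 2.67 ± 0.49 was not called in the main fit (edgeR adjusted p = 0.257). DESeq2 called it (adjusted p = 0.00492), as did edgeR without EMdKO mouse 4, the lowest of its group (adjusted p = 0.0354). Gbp2b has close paralogs, and reads could be split among them.

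Ebi3 encodes a subunit shared by the cytokines IL-27 and IL-35. It was at 3.20, 5.93, 4.37 and 4.07 CPM in EKO and at 12.3, 14.7, 12.8 and 8.82 CPM in EMdKO, without overlap. The difference was 1.46 ± 0.30 (edgeR adjusted p = 0.444; DESeq2 adjusted p = 0.00677). Cxcl13, the chemokine that attracts B cells, was at 11.9, 14, 11.8 and 11.2 CPM in EKO, a narrow range, and at 84.1, 43.1, 103 and 69.4 CPM in EMdKO. Its difference was 2.62 ± 0.55 (edgeR adjusted p = 0.444). It passed with DESeq2 (adjusted p = 0.00102) and when only the 8 libraries compared were fitted (edgeR adjusted p = 0.0065). Control mice ranged from 6.12 to 53.3 CPM and MKO mice from 59.4 to 236.

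**Figure D1:**
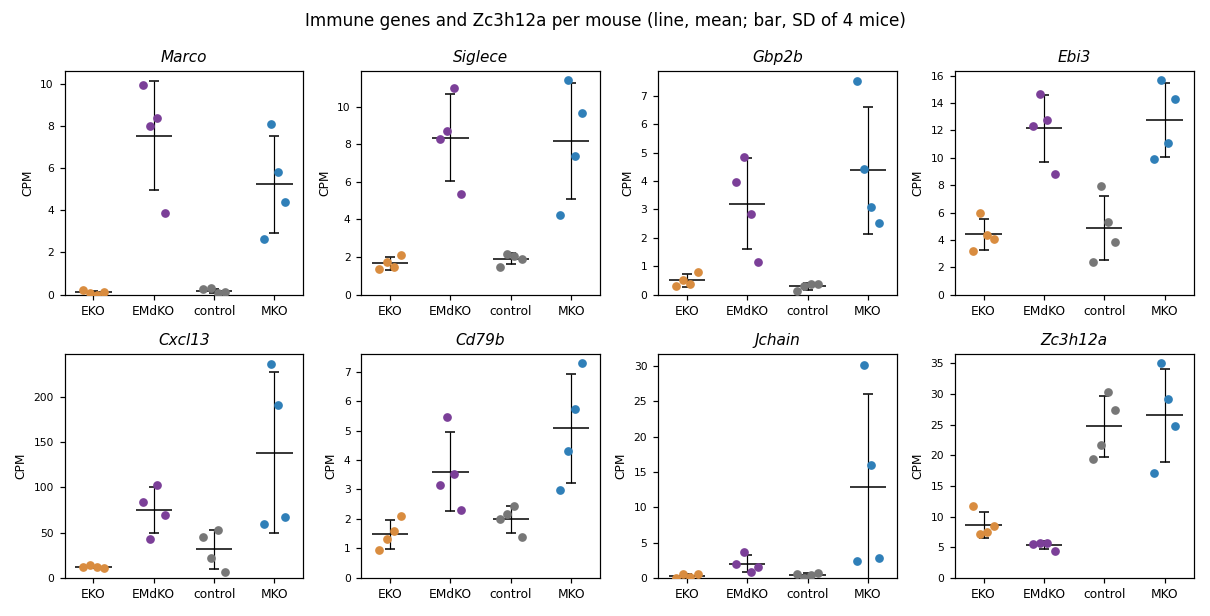
Each panel plots 1 gene in CPM on a linear axis from 0, with a point per mouse, a line at the group mean and a bar of 1 SD over 4 mice. Marco, Siglece, Gbp2b, Ebi3, Cxcl13, Cd79b and Jchain are higher in every EMdKO mouse than in every EKO mouse, and Zc3h12a is lower in every EMdKO mouse.

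The 20 genes with the smallest p held 15 that were higher and 5 that were lower in EMdKO. They were chosen by p for this same difference, so that none of the 20 overlapped between the groups is largely fixed by the choice. Over all targets tested, 2.86% lay wholly above and 2.71% wholly below. Apart from Marco and Siglece their edgeR adjusted p was 0.257 to 0.514.

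Among the lower ones, Islr, a gene of mesenchymal stromal cells, was at 47.9, 40.4, 33.9 and 48.0 CPM in EKO and 24, 17.4, 20.9 and 14 CPM in EMdKO (-1.15 ± 0.22, edgeR adjusted p = 0.268). DESeq2 called it (adjusted p = 0.00183). Lgmn, which encodes the lysosomal protease legumain, was at 81.5, 94.5, 107 and 93.0 CPM against 62.1, 57.7, 54.7 and 56.6 CPM (-0.70 ± 0.16), and DESeq2 called it too (adjusted p = 0.0393). Both genes were thus lower in every double knockout than in any EKO mouse.

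Dbn1, an actin-binding protein gene, differed by -0.98 ± 0.23, Kifc1, a kinesin of the mitotic spindle, by -0.96 ± 0.23, and its close relative Kifc5b by -1.66 ± 0.36. Reads of these 2 kinesin genes may not be separable. The other higher genes included the transcriptional regulators Zscan22 (0.96 ± 0.21), Mtf1 (0.62 ± 0.15), Plag1 (0.98 ± 0.23) and Spen (0.59 ± 0.14). Also higher were the polarity gene Mpp5 (0.93 ± 0.21), the F-box gene Fbxl21 (1.11 ± 0.25), the guanine nucleotide exchange factor gene Fgd6 (0.70 ± 0.17) and the receptor gene Gpr1 (1.35 ± 0.33). Gm16973 (1.29 ± 0.26) and 8430431K14Rik (1.27 ± 0.31) completed the list. DESeq2 called Zscan22 (adjusted p = 0.0393) and Mpp5 (adjusted p = 0.0465).

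LysM-Cre was added to a skin without Krt14-Cre in the MKO mice, and most of these differences had the same sign there. MKO minus control had the same sign as EMdKO minus EKO for 14 of the 15 higher and all 5 lower genes of the 20, the exception being Gpr1 (-0.09 in MKO). Over all 13633 targets the signs agreed for 61.4%. The share was 79% (368 of 466) for targets higher at an unadjusted p under 0.05 and 80.4% (348 of 433) for those lower.

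Of the 5 immune genes described above, 3 were called in MKO, of which Marco and Siglece were called in EMdKO too. Against control, Marco rose by 4.77 ± 0.52 (edgeR adjusted p = 0.00123) and Siglece by 2.10 ± 0.31 (0.0137). Gbp2b rose by 3.83 ± 0.54 (0.0126). When any single control mouse was left out, 1 gene was called, and Gbp2b had an edgeR adjusted p of 0.0708 to 0.0782. Ebi3 differed by 1.39 ± 0.31 and Cxcl13 by 2.13 ± 0.54, neither called (both edgeR adjusted p = 0.331). Other genes of the 20 had smaller values in MKO, such as Islr at -0.35 ± 0.22 and Mpp5 at 0.29 ± 0.21. MKO against control had 4 calls, all higher, which was 0.0293% of targets, while DESeq2 called 112 and limma-voom 0.

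**Figure D2:**
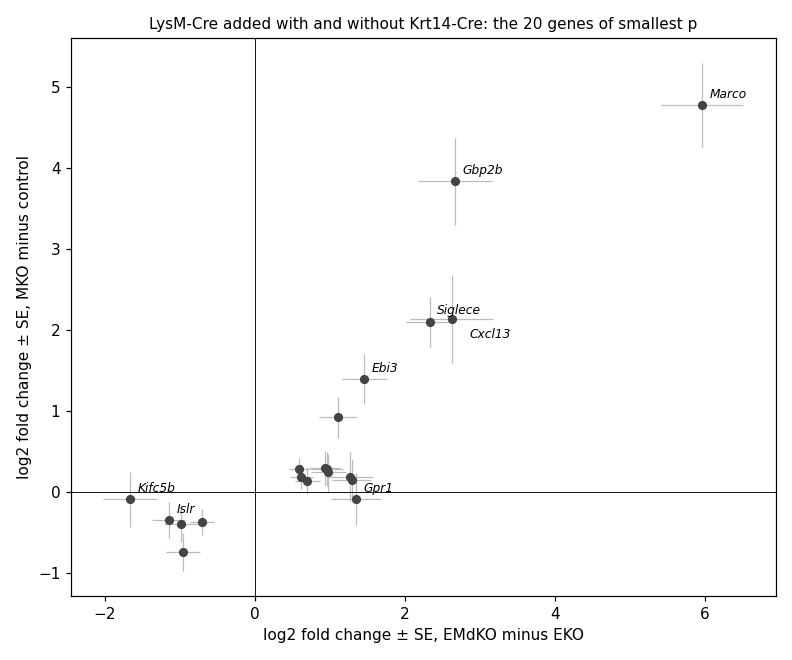
The 20 genes of smallest p are plotted by their log2 fold change in EMdKO minus EKO (horizontal) and in MKO minus control (vertical), with bars of 1 SE. Marco, Gbp2b, Siglece, Cxcl13 and Ebi3 lie far from 0 on both axes, and Gpr1 is the higher gene that lies below 0 in MKO.

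The fourth gene called in MKO was Mrgprg, a Mas-related G protein-coupled receptor. It rose by 5.14 ± 0.73 there (edgeR adjusted p = 0.0126), at 3.51 to 27.9 CPM in MKO and 0.125 to 0.654 CPM in control. In EMdKO it was at 2.40, 0.727, 3.05 and 2.42 CPM, against 0.103, 0.0872, 0.607 and 0.788 CPM in EKO. EMdKO mouse 2 fell within the EKO range, and the difference of 2.53 ± 0.76 was not called (edgeR adjusted p = 0.625).

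The difference between the 2 steps was tested directly as an interaction, and edgeR called 0 targets (0%), with 465 (3.41%) at an unadjusted p under 0.05. limma-voom called 0 and DESeq2 called 3, all keratin-associated protein genes of the hair shaft. Their fitted log2 differences in DESeq2 were 24.30, 25.10 and 26.14, and the hair shaft level varied widely between mice. For Marco, Siglece, Gbp2b, Ebi3 and Cxcl13 the interaction had an edgeR adjusted p of 0.999. This does not show that the steps were equal.

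Genes without any overlap in both steps numbered 18 above and 14 below. The 18 were 4.62% of the 390 targets that lay wholly above in EMdKO, and 9.63% of the 187 (1.37% of all) that did so in MKO. The 14 were 3.79% of the 369 below in EMdKO and 6.01% of the 233 (1.71% of all) below in MKO. The genes of these sets named next were chosen after their values were seen. Tnfsf13b, which encodes the B cell survival factor BAFF, was at 3.82, 5.76, 2.91 and 2.36 CPM in EKO and 7.04, 11.3, 6.28 and 5.88 CPM in EMdKO (1.01 ± 0.27). Cd79b, a subunit of the B cell receptor, was at 0.929, 1.31, 1.58 and 2.10 CPM against 3.15, 5.45, 3.52 and 2.31 CPM (1.29 ± 0.35). Both had an edgeR adjusted p of 0.514 and lay above the EKO range in every EMdKO mouse.

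Jchain, the joining chain of secreted IgA and IgM, was at 0, 0.523, 0.121 and 0.525 CPM in EKO and 1.99, 3.63, 0.856 and 1.47 CPM in EMdKO. The counts were 11 and 77, a ratio of 6.34 with an exact 95% interval of 3.35 to 13.2 for counting error only, and the gene was not called (edgeR adjusted p = 0.678). Of 11 measured B and plasma cell markers 4 had enough counts to be tested. The B cell gene Ms4a1, which encodes CD20, was at most 0.349 CPM in any of the 8 libraries, and Pax5 at most 1.05 CPM. Cd22 (-0.12) and Xbp1 (0.10) made up the tested members.

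Macrophage markers as a group lay on both sides of EKO levels. Of 17 tested, 9 had a fold change above 0 and 8 below, with a median of 0.05, beside 50.3% above 0, 49.7% below and a median of 0.00 over all targets. Their summed level was 697 to 1202 CPM in EKO and 705 to 1068 CPM in EMdKO. No member was called, 1 of 17 lay wholly above (2.86% of all targets did) and 0 wholly below, and without EMdKO mouse 3 the median was -0.25.

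Itgam, which encodes the CD11b integrin, was at 45.5, 54.3, 54.0 and 46.4 CPM in EKO and 97.0, 91.0, 121 and 54.8 CPM in EMdKO, without overlap (0.86 ± 0.29, edgeR adjusted p = 0.672). Adgre1, the F4/80 antigen, was at 10.9, 18.3, 24 and 19.3 against 30.6, 41.7, 39.1 and 23.4 CPM (0.89 ± 0.25, adjusted p = 0.514), where the highest EKO mouse lay just above the lowest EMdKO mouse. Aif1 differed by 0.84 ± 0.29. On the other side were Fcgr1, an activating receptor for IgG (-1.13 ± 0.46), Lyz2 (-0.68 ± 0.30) and Cd68, a lysosomal glycoprotein (-0.44 ± 0.26). Lyz2 holds the LysM-Cre insertion in every EMdKO mouse, and the part of the insertion in its level was not tested. Adgre1 (0.92), Aif1 (0.97), Itgam (0.67), Fcgr1 (-0.89) and Cd68 (-0.51) had the same signs in MKO minus control.

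The other scavenger and pattern receptors did not follow Marco. Of 17 tested, 7 were above 0 and 10 below, with a median of -0.27, and only Marco was called. Msr1, the class A scavenger receptor related to Marco, was at 1.14, 1.22, 1.82 and 0.657 CPM in EKO and 0.414, 0.727, 0.571 and 0.315 CPM in EMdKO (-1.25 ± 0.49, edgeR adjusted p = 0.703). The C-type lectin gene Clec4d differed by -3.67 ± 1.27, with EKO mouse 3 alone at 8.74 CPM and every other mouse of the 8 at or under 1.22 CPM. Among 9 tested Siglecs and paired inhibitory receptors, 3 were above 0 and 6 below, with a median of -0.22. Siglech, a marker of plasmacytoid dendritic cells, differed by -1.24 ± 0.50, Pirb by -0.56 ± 0.26 and Cd33 by 0.37 ± 0.29, none called.

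Of 14 neutrophil genes measured, S100a8 and S100a9 included, 7 were tested, of which 3 were above 0 and 4 below (median -0.17, and 0.22 without EKO mouse 1). These 2 genes, described with the epidermis, had the lowest values of the list. The granule genes Mpo, Elane, Ltf and Camp were at most 0.746 CPM in any of the 8 libraries. T and NK cell markers were 9 above and 6 below 0 of 15 (median 0.12, and -0.02 without EKO mouse 1), with Foxp3, the regulatory T cell factor, at 0.929 to 2.18 CPM in EKO and 2.21 to 4.06 CPM in EMdKO (0.92 ± 0.56). Dendritic and Langerhans cell markers were 10 above and 3 below of 13 (median 0.31), but 7 above and 6 below without EKO mouse 1 (median 0.03). Mast cell and basophil markers were 5 above and 4 below of 9 (median 0.16, and -0.10 without EMdKO mouse 3). None of these members was called.

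Of 30 tested chemokines and their receptors, 16 were above 0 and 14 below (median 0.05). Besides Cxcl13, the receptor gene Ccr1 did not overlap between the groups, at 5.37, 5.84, 10.4 and 8.93 CPM in EKO and 2.32, 1.45, 4.66 and 2.21 CPM in EMdKO (-1.50 ± 0.61, edgeR adjusted p = 0.707). Ccl8, a monocyte chemoattractant, differed by -0.72 ± 0.32, and Cxcl14, a chemokine of epithelia, by 0.58 ± 0.23. Cxcr5, the receptor of Cxcl13, was at most 0.349 CPM in any of the 8 libraries.

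mRNAs described as targets of MCPIP1 gave no call. Of 26 measured, 17 were tested, of which 13 were above 0 and 4 below, with a median of 0.24. Without EKO mouse 1 they were 9 above and 8 below (median 0.15), and without EKO mouse 1 and EMdKO mouse 3 together 8 above and 9 below (median -0.09). Il6, a classic target, was at most 0.497 CPM in any of the 8 libraries and was not tested. Nfkbiz, an NF-kB cofactor that is described as a target, was at 221, 366, 286 and 368 CPM in EKO and 515, 371, 654 and 463 CPM in EMdKO, just without overlap (0.69 ± 0.27, edgeR adjusted p = 0.703).

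The T cell co-stimulator gene Icos (0.72 ± 0.40) also had no overlap. In MKO minus control 7 of the 17 were above 0 and 10 below, and 13 were above 0 without control mouse 2. Among 11 tested regulators of mRNA decay, Zc3h12a included, 8 were above 0 and 3 below, with a median of 0.13. Zc3h12c, a paralog of the deleted gene, differed by 0.65 ± 0.20, Rc3h1, which encodes Roquin-1, by 0.46 ± 0.14 and the AU-rich element binder Zfp36l2 by 0.57 ± 0.22. The corresponding values in MKO were 0.22, -0.18 and 0.12, and none was called.

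Genes of antigen presentation and the interferon-gamma response lay mostly above EKO levels. Of 25 tested, 21 had a fold change above 0, with a median of 0.40, and 24 of 25 did so in MKO minus control, with a median of 0.42, where 50.2% of all targets were above 0. None was called in EMdKO. H2-Aa, a chain of an MHC class II molecule, was at 607, 594, 687 and 521 CPM in EKO and 1171, 1013, 1420 and 788 CPM in EMdKO (0.87 ± 0.29, edgeR adjusted p = 0.672). Cd74, its invariant chain, was at 2165, 2113, 2287 and 1968 CPM against 2972, 2896, 3987 and 2842 CPM (0.57 ± 0.31). Both lay wholly above, as did Gbp2b, Gbp2 (0.66 ± 0.30) and Gbp4.

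Gbp4 was at 28.5, 31.7, 24.4 and 20 CPM in EKO and 55.2, 132, 50.1 and 41.2 CPM in EMdKO (1.41 ± 0.52; 1.45 in MKO). The 5 genes without overlap of 25 compare with 2.86% of all targets. In MKO minus control 1 of 25, Gbp2b, lay wholly above, where 1.37% of all targets did. Class I genes differed less, with H2-K1 at 0.17 ± 0.24, H2-D1 at -0.12 ± 0.23 and the peptide transporter gene Tap1 at -0.29 ± 0.24. Without EKO mouse 1 the list had 17 of 25 above 0, with a median of 0.28. In MKO minus control it had 19 of 25 above 0 without control mouse 1, with a median of 0.27.

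Type I interferon response genes lay mostly below EKO levels. Of 17 tested, 16 were below 0, with a median of -0.49. None was called, and no member had an unadjusted p under 0.05. Oasl1, an inhibitor of Irf7 translation, was at 2.37, 7.41, 5.95 and 2.76 CPM in EKO and 1.74, 1.33, 2.00 and 0.630 CPM in EMdKO, without overlap (-1.68 ± 0.82). Irf7, the amplifying transcription factor of the response, was at 18.2, 44.6, 49.0 and 22.5 against 11.6, 10.8, 25.4 and 12.1 CPM (-1.16 ± 0.60), with EMdKO mouse 3 inside the EKO range. Over the 16 fits that left out a library the median ran from -0.73, without EKO mouse 1, to -0.15, without EKO mouse 2.

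The second step gave no steady direction for this list. In MKO minus control 14 of 17 were below 0, with a median of -0.93, but without control mouse 2 the count was 12 above and 5 below, with a median of 0.15. Control mouse 2 had a list level of 5.53 in mean log2 CPM, against 2.85 to 3.57 in the other controls and 3.03 to 3.89 in MKO. Oasl1 was at 35.7 CPM and Irf7 at 115 CPM in that mouse, against 1.37 to 4.33 and 10.9 to 27.1 CPM in the other controls.

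Cell cycle genes had the largest share of members without overlap among the 32 lists. All 19 tested members were below 0, with a median of -0.68, and 15 of 19 lay wholly below EKO in every EMdKO mouse, where 2.71% of all targets did. At an unadjusted p under 0.05, 10 of 19 were lower, where 3.18% of all targets were. None was called after adjustment over all targets. All 19 were also below 0 in MKO minus control (49.8% of all targets were), with a median of -0.66, though 1 of 19 lay wholly below control there. Without control mouse 1, 17 of 19 were below 0 in that step, with a median of -0.29.

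Plk1, a kinase that drives entry into and passage through mitosis, was at 14.8, 11.3, 13.2 and 9.06 CPM in EKO and 5.05, 4.48, 4.09 and 6.41 CPM in EMdKO (-1.27 ± 0.35, edgeR adjusted p = 0.514). Cdc20, which activates the anaphase-promoting complex, was at 15.6, 25.7, 20.6 and 18.3 against 8.45, 7.51, 9.14 and 11.3 CPM (-1.14 ± 0.29, adjusted p = 0.514). Ccnb2, a mitotic cyclin, was at 18.2, 17.4, 21.5 and 12.6 against 9.36, 8.48, 10.4 and 8.09 CPM (-0.94 ± 0.29, adjusted p = 0.641). In each of these 3 genes the highest EMdKO mouse lay below the lowest EKO mouse.

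Genes of DNA replication showed the same order. Mcm6, a subunit of the replicative helicase, was at 59.9, 53.4, 63.3 and 62.0 CPM in EKO and 38.6, 39.4, 30.1 and 40.4 CPM in EMdKO (-0.68 ± 0.18, edgeR adjusted p = 0.514). Mcm2 (-0.72 ± 0.24) and Mcm5 (-1.11 ± 0.41) also did not overlap. Mki67, the gene of the proliferation antigen Ki-67, was at 48.9, 53.8, 53.8 and 38.5 against 31.7, 25.2, 37.8 and 33.6 CPM (-0.60 ± 0.42). The 4 members that did overlap were Top2a, Bub1, Cenpf and Rrm2, with fold changes of -0.64, -0.35, -0.58 and -0.57.

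The promoters of Cdc20, Plk1, Ccnb2 and Mcm6 are shown because they had the 4 smallest p of the list and stand for mitosis and replication. They are RefSeq windows on GRCm38.p6, from 250 bases before to 50 after the start. Capitals mark the CHR element (TTTGAA), the CCAAT box (CCAAT) and an E2F site (TTTGGCGC) on either strand.
Cdc20, chr4:118437294-118437593, minus strand: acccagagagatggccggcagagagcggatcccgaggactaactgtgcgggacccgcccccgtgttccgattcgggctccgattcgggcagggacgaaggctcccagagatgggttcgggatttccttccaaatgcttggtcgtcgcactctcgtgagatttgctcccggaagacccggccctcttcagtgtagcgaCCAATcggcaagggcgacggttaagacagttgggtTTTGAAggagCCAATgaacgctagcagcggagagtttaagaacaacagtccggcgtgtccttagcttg
Plk1, chr7:122159185-122159484, plus strand: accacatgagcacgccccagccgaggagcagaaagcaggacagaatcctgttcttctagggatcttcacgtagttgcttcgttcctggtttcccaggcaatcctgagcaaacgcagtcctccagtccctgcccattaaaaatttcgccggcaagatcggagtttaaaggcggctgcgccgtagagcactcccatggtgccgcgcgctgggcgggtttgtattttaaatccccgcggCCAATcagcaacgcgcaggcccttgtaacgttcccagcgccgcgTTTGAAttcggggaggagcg
Ccnb2, chr9:70421505-70421804, minus strand: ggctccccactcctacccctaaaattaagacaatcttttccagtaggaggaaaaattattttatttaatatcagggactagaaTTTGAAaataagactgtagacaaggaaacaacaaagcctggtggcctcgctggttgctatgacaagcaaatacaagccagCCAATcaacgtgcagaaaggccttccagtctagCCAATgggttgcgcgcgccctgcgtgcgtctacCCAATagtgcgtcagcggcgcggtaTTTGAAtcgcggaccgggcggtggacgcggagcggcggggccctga
Mcm6, chr1:128359656-128359955, minus strand: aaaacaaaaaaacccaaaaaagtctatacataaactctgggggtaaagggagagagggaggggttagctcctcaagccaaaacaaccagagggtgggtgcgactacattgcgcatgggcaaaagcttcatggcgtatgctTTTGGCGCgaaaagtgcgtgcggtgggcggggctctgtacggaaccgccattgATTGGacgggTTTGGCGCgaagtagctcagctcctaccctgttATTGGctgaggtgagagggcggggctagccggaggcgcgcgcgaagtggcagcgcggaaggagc

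The CHR letters, at which mitotic genes are repressed outside division, matched once in Cdc20 and Plk1 and 2 times in Ccnb2. The CCAAT box matched 2 times in Cdc20, once in Plk1, 3 times in Ccnb2 and 2 times in Mcm6. Mcm6 alone held the E2F letters, in 2 places. Promoters were found for 17 of the 19 tested members, of which 64.7% held the CHR letters, 88.2% the CCAAT box and 11.8% the E2F letters. The shares over all 32851 promoters were 17.9%, 37.4% and 0.514%. For the list the first promoter of each gene was used, while the 32851 include every promoter listed. The members were written down as cell cycle genes, so these shares describe the list and not a difference between EMdKO and EKO. No match overlapped another in the windows shown. The matches are letters in a window and do not show binding.

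The level of hair shaft genes varied widely between mice and is given beside these genes, and its part in the result was not tested. The mean log2 CPM of the cell cycle list was 4.36 to 4.80 in EKO and 3.69 to 3.94 in EMdKO. The hair shaft level was 0.95 to 6.17 in EKO and -1.08 to 0.39 in EMdKO mice 1, 2 and 4. EMdKO mouse 3, with the highest hair shaft level of the 8 mice at 6.34, had a cell cycle level of 3.94, below every EKO mouse. EKO mouse 4, the lowest of its group in both lists, had a hair shaft level of 0.95 and a cell cycle level of 4.36. No EKO mouse had a hair shaft level as low as those of EMdKO mice 1, 2 and 4. Without both EKO mouse 1 and EMdKO mouse 3, all 19 members remained below 0, with a median of -0.71. Over the 25 alternative settings the count stayed at 19 and the median ran from -0.75 to -0.64. In the fit without that pair, the EKO mice left had hair shaft levels of 3.34, 4.55 and 0.95. The EMdKO mice left had 0.39, -1.08 and -0.78, all lower, so that fit does not separate hair shaft level from genotype.

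Hair shaft levels are given for the second step too. All 28 tested hair shaft genes were below 0 in MKO minus control, with a median of -6.94. Control mouse 1 was highest for both lists, with a cell cycle level of 4.86 against 3.58 to 3.81 in the other controls and 2.72 to 3.95 in MKO, and a hair shaft level of 8.98. The hair shaft level was -0.95 to 6.21 in the other controls and -1.22 to 2.52 in MKO. Control mice 2, 3 and 4, at hair shaft levels of 6.21, 4.42 and -0.95, had cell cycle levels of 3.58, 3.81 and 3.65. MKO mice 1 to 4, at hair shaft levels of -1.22, -0.74, -0.91 and 2.52, had cell cycle levels of 2.72, 3.39, 3.36 and 3.95. MKO mouse 4 was thus the highest of its group in both lists. The part of control mouse 1 and of the hair shaft level in the second step was not tested beyond the fit without that mouse given above.

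**Figure D3:**
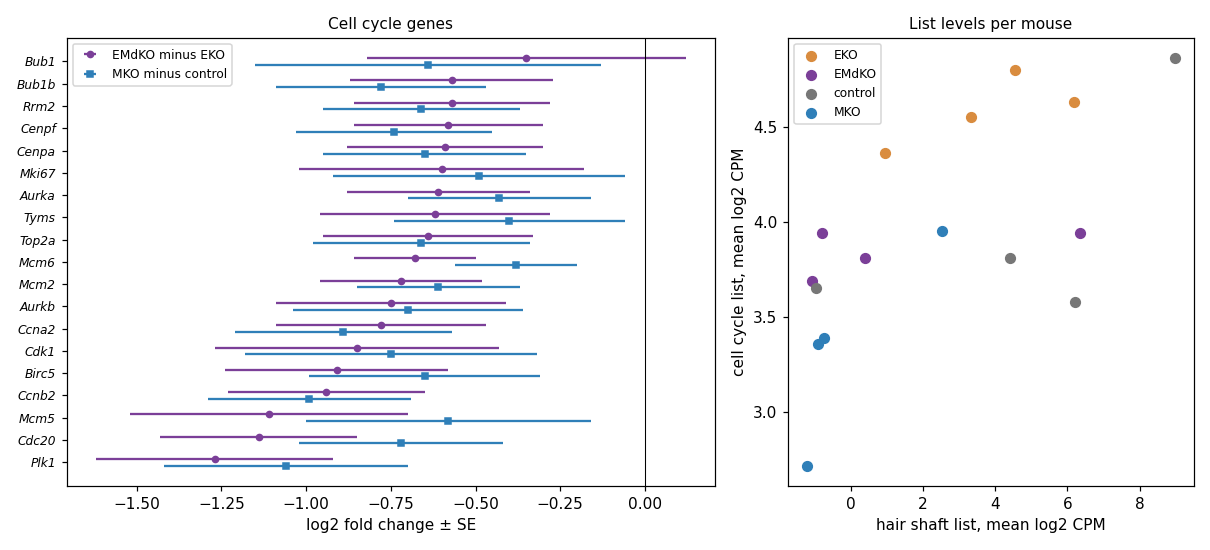
Left, the log2 fold change ± SE of each tested cell cycle gene in EMdKO minus EKO (circles) and MKO minus control (squares). Right, the mean log2 CPM of the cell cycle list against that of the hair shaft list, with a point per mouse. All 19 genes lie below 0 in both comparisons, and the 4 EMdKO mice lie below the 4 EKO mice in cell cycle level, with EMdKO mouse 3 the one of them at a high hair shaft level.

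Among the 13633 targets tested, 14 lay wholly below in both steps. Outside the list these included the kinesin genes Kif11 and Kif22, the replication licensing gene Cdt1 and the cytokinesis gene Cep55. They were picked from the 14 after the values were seen, so their order is fixed by the choice. Other genes of the 14 were Nup107, Nid2, Ccn4, Sf3b2 and Pias4. Kif11 was at 5.88, 6.89, 9.83 and 5.78 CPM in EKO and 3.07, 3.39, 4.57 and 4.10 CPM in EMdKO. Ccnb2 was the list member that lay wholly below in both steps.

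Several epidermal genes were lower in EMdKO than in 3 of the 4 EKO mice, and EKO mouse 1 lay lower still. Stfa3, a stefin that inhibits cysteine proteases, was at 12.4, 721, 992 and 698 CPM in EKO and 133, 71.4, 218 and 118 CPM in EMdKO (-2.16 ± 0.82, edgeR adjusted p = 0.703). Serpinb3a, a serine protease inhibitor of the squamous cell carcinoma antigen family, was at 0.103, 24, 61.2 and 22.6 against 4.23, 1.21, 10.6 and 3.57 CPM (-2.44 ± 0.85, adjusted p = 0.672). EKO mice 2 to 4 lay above all EMdKO mice for both genes, and EKO mouse 1 below all of them.

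Without EKO mouse 1, Serpinb3a differed by -2.86 ± 0.53 (edgeR adjusted p = 0.156). Without both EKO mouse 1 and EMdKO mouse 3, a setting chosen after the data were seen, it fell by 3.55 ± 0.50 on the log2 scale and was called (adjusted p = 0.0191). The only other genes called in that fit were Marco, higher, and Fetub, which encodes a protease inhibitor of the cystatin superfamily and fell by 3.05 ± 0.43 (adjusted p = 0.0191). Siglece was not called there (adjusted p = 0.124). Of the 10 tested protease inhibitors 8 were below 0 with all libraries (median -0.44) and 9 without EKO mouse 1 (median -0.80). EKO mouse 3, the highest for many of these genes, bore on the size: without it the median was -0.11 and Serpinb3a differed by -1.66 ± 0.86 (adjusted p = 0.936). Stefin and Serpinb3 genes have near-identical copies, so reads may be shared among them.

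S100a8 and S100a9 encode the subunits of calprotectin, made by neutrophils and by stressed keratinocytes. S100a8 was at 0.413, 70.9, 247 and 15.2 CPM in EKO and 2.57, 0.727, 4.00 and 5.15 CPM in EMdKO (-4.73 ± 1.30, edgeR adjusted p = 0.514). S100a9 was at 0.826, 79.6, 316 and 26.9 against 7.87, 3.63, 10.5 and 10.4 CPM (-3.70 ± 1.11, adjusted p = 0.632). Again EKO mice 2 to 4 exceeded every EMdKO mouse and EKO mouse 1 did not. Without EKO mouse 3 the differences were -3.21 and -2.14. The fold changes of S100a8 and S100a9 in MKO minus control were -4.26 and -3.87, and -2.81 and -2.13 without control mouse 2. That mouse had 17.7 and 24.7 CPM, against 0.125 to 5.45 and 1.75 to 2.85 CPM in the other controls, and S100a8 overlapped between MKO and control.

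Krt16, a keratin of wounded epidermis, was at 21.6, 419, 1165 and 153 CPM in EKO and 44.9, 56.9, 92.9 and 56.5 CPM in EMdKO (-2.81 ± 0.92, edgeR adjusted p = 0.672; -1.66 ± 0.84 without EKO mouse 3). Rptn, a cornified envelope protein of the S100-fused family, was at 9.19, 207, 492 and 138 against 53.8, 32.6, 84.6 and 37.1 CPM (-2.02 ± 0.73; -1.19 ± 0.69 without EKO mouse 3). Krt1, the main keratin of the suprabasal layers, was at 458, 3890, 5036 and 4572 against 1576, 1349, 2458 and 1711 CPM (-0.98 ± 0.51). In MKO minus control Krt16 differed by -2.97 ± 0.94, Rptn by -1.66 ± 0.75 and Krt1 by 0.02 ± 0.51, none called. Krt16 and Rptn lay below every control in every MKO mouse. Without control mouse 2 the Krt16 difference there was -1.58, and without control mouse 1 that of Rptn was -1.16. Of 18 tested suprabasal and cornified envelope genes 15 were below 0 (median -0.44), and 17 were without EKO mouse 1 (median -0.75). None was called in either fit, and the median was -0.33 without EKO mouse 3 and -0.81 without EMdKO mouse 3.

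**Figure D4:**
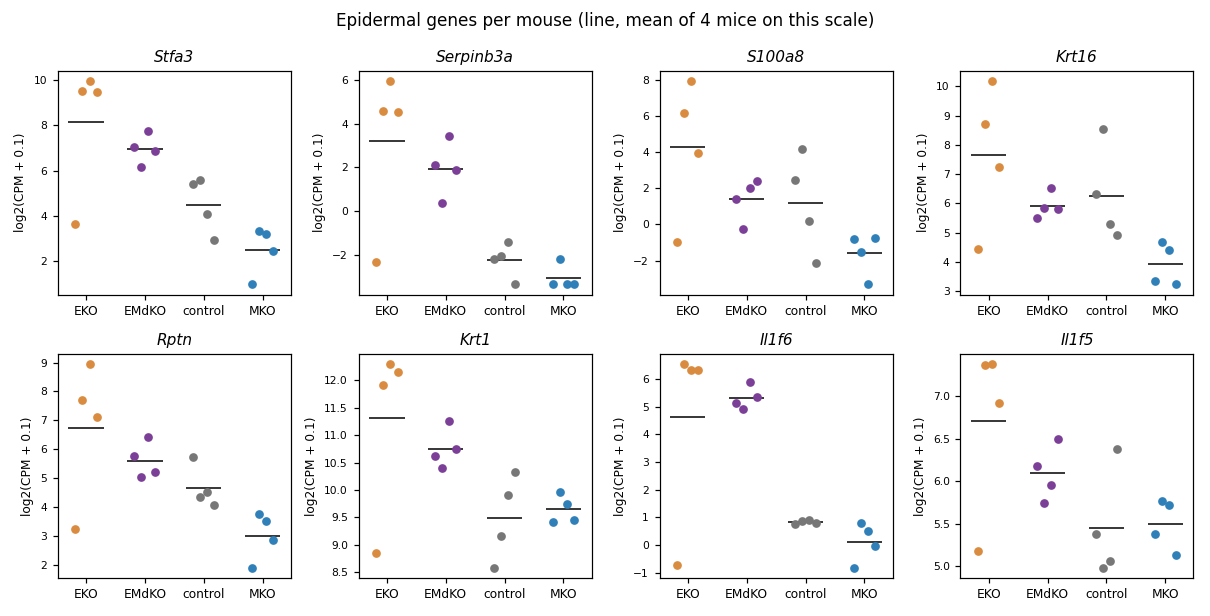
Each panel plots 1 epidermal gene as log2(CPM + 0.1), with a point per mouse and a line at the mean of the 4 mice on this scale. In each panel EKO mouse 1, the leftmost EKO point, lies below the other EKO mice and below the 4 EMdKO mice.

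IL-36 and related cytokine genes depended on EKO mouse 1. Of 12 tested cytokine genes of the IL-1, IL-36, IL-6 and IL-17 groups 3 were above 0 and 9 below, with a median of -0.12. Without EKO mouse 1 the median was -0.44, and 5 of 12 had an unadjusted p under 0.05, as did 1039 of the 13756 targets tested in that fit. None was called. Il1f6 was at 34.9, 30.4, 58.5 and 40.7 CPM in EMdKO, below EKO mice 2 to 4 and above EKO mouse 1 (-0.61 ± 0.69, edgeR adjusted p = 0.899). Without EKO mouse 1 its difference was -1.02 ± 0.24 (adjusted p = 0.307). Il1f5, the natural IL-36 receptor antagonist, was at 36.3, 165, 166 and 121 against 72.3, 53.5, 61.9 and 90.0 CPM (-0.81 ± 0.38). Il1rl2, the IL-36 receptor, differed by 0.34 ± 0.16.

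Antimicrobial peptides and alarmins were 3 above and 10 below 0 of 13 (median -0.41, and -0.12 without EKO mouse 3 or -0.67 without EKO mouse 1). Besides the calprotectin genes, Chil1, a chitinase-like gene, was at 4.13, 120.2, 137 and 64.1 CPM in EKO and 40.4, 21.6, 69.9 and 22.7 CPM in EMdKO (-1.07 ± 0.72). Basal keratinocyte markers were 9 above and 3 below of 12 (median 0.22, and 0.10 without EKO mouse 1). Stress and wound genes were 8 above and 5 below of 13 (median 0.15), with the EGF receptor ligand gene Epgn at 5.06, 7.85, 11.2 and 21.0 CPM in EKO and 10.6, 17.6, 33.3 and 56.0 CPM in EMdKO (1.39 ± 0.55). The Epgn difference in MKO was -1.31, and -0.84 without control mouse 2. In MKO minus control the stress and wound list had 1 above and 12 below 0 (median -1.08). Of its 13 members 5 lay wholly below control, where 1.71% of all targets did. The antimicrobial list had 0 above and 13 below there (median -1.28), and the basal list 6 and 6 (median 0.06). Control mouse 2 was the highest control for the first 2 of these lists, at 5.68 and 3.33 in mean log2 CPM.

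Immediate early and heat shock genes had 14 of 15 members above 0, with a median of 0.34, and 3 of 15 above 0 in MKO minus control. EMdKO mouse 3 stood apart with a summed level of 4585 CPM, against 1705 to 1960 CPM in the other EMdKO mice, and without it 11 of 15 were above 0, with a median of 0.20. The count and the median were the same without EKO mouse 3. Dusp1, a phosphatase that switches off MAP kinases, was at 60.3, 75.6, 46.2 and 51.5 CPM in EKO and 89.4, 99.3, 234 and 119 CPM in EMdKO (1.21 ± 0.32, edgeR adjusted p = 0.514). Atf3, a stress-induced transcription factor gene, was at 27.7, 15.4, 16.6 and 20.9 against 42.8, 45.2, 50.5 and 41.5 CPM (1.16 ± 0.44). Neither gene overlapped between the groups, while Fos (1.59 ± 0.79) and Egr1 (1.15 ± 0.52) did, each with EMdKO mouse 3 highest.

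Collagen and matrix genes had 7 above and 15 below 0 of 22, with a median of -0.23. Col14a1, a collagen that associates with fibrils, was at 39.0, 38.3, 51.7 and 41.0 CPM in EKO and 17.8, 14.1, 31.8 and 22.2 CPM in EMdKO, without overlap (-0.98 ± 0.25, edgeR adjusted p = 0.514). Col6a1 (-0.58 ± 0.28) did not overlap either, and Col6a3 differed by -0.84 ± 0.28. The fibrillar genes Col1a1 (0.19 ± 0.33), Col1a2 (0.35 ± 0.32) and Col3a1 (-0.08 ± 0.31) differed by about their SE or less. Adipocyte genes were above 0 in 15 of 15, with a median of 0.28, though none had an unadjusted p under 0.05. The median was 0.68 without EKO mouse 1 and 0.15 without EKO mouse 3. With a library left out, the count above 0 fell as low as 12. In MKO minus control 5 adipocyte genes were above 0 and 10 below, with a median of -0.05.

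The remaining lists are given by count and median. Hair shaft genes were 9 above and 19 below 0 of 28 (-0.36), but 22 above and 6 below without EKO mouse 1 (0.80) and 0 above and 28 below without EMdKO mouse 3 (-6.56). Hair follicle stem cell and niche genes were 7 and 9 of 16 (-0.17, and 0.13 without EKO mouse 1), and melanocyte genes 2 and 7 of 9 (-1.22, and -0.63 without EKO mouse 1). Skeletal muscle genes were 8 and 11 of 19 (-0.05), but 16 and 3 without EKO mouse 1 (0.24). Sebaceous gland genes were 9 and 9 of 18, with 5 to 14 above 0 when a library was left out (medians -0.22 to 0.20). Endothelial genes were 13 and 3 of 16 (0.19). Nerve and Schwann cell genes were 7 and 5 of 12 (0.08, and -0.10 without EMdKO mouse 3), circadian clock genes 12 and 2 of 14 (0.27, and 0.14 without EKO mouse 3), and red blood cell genes 1 and 1 of 2. None of their members was called.

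**Figure D5:**
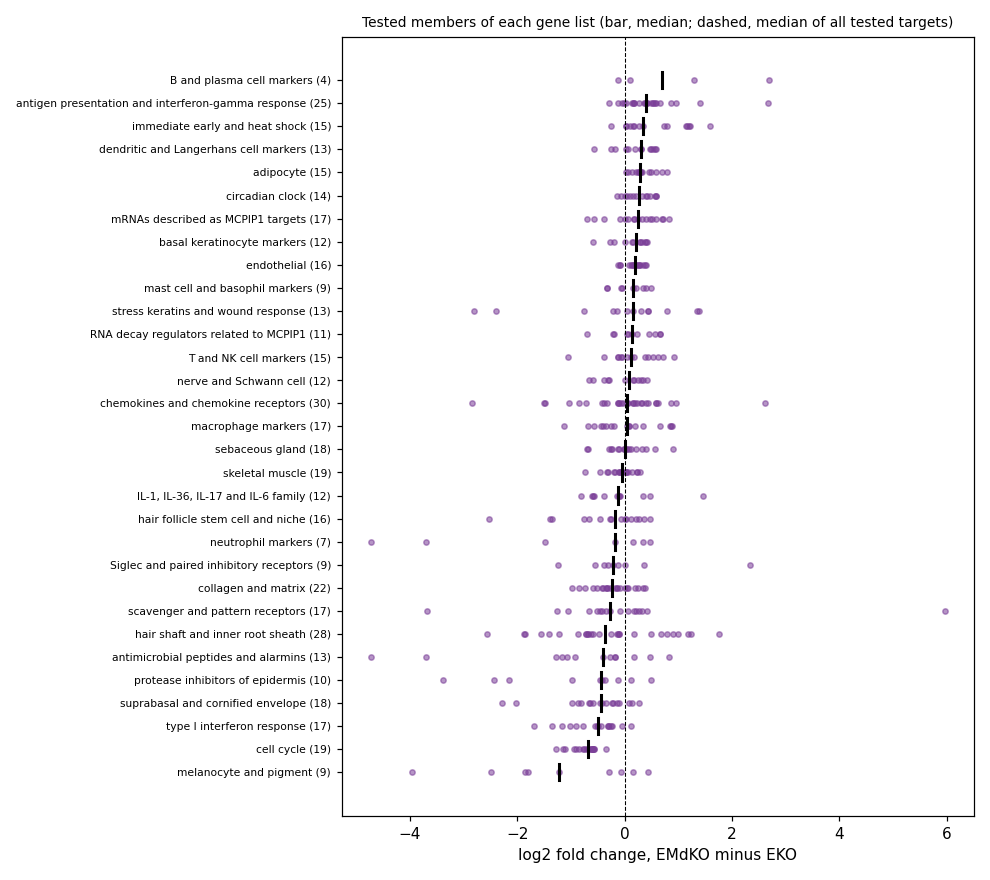
Points are the log2 fold changes, EMdKO minus EKO, of the tested members of 31 gene lists with 3 or more such members, the number in brackets. Black bars are list medians and the dashed line is the median of all tested targets. The cell cycle list lies wholly below 0 and the adipocyte list wholly above, and Marco is the point at 5.96.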

How the data were processed

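Whole skin of 16 mice, 4 in each of 4 genotypes, was profiled, per the labels' protocols, with an Ion AmpliSeq kit for the mouse transcriptome. The authors deposited raw read counts per target, and the submitters' processing notes name HTSeq 0.6.0 and DESeq2 1.18.1. For the aligner, genome build and strand setting: not given in the sources used here. HTSeq summary lines (3.111 to 5.252% of reads) were removed. Symbols were found for 22562 of 23930 targets through RefSeq and GENCODE tables. Depth was 6962474 to 12086327 counts.

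Counts were fitted with edgeR 4.0.16 in R 4.3.3 (TMM scaling, the default filter, quasi-likelihood test, 1 mean per group over 16 libraries), giving 12 residual degrees of freedom and a biological coefficient of variation of 0.31. The SE of a fold change is its size divided by the square root of the test's F. Contrasts were EMdKO minus EKO, MKO minus control and their difference. Values of 3 genes were tested by exact permutation with scipy 1.17.1. Alternatives were DESeq2 1.42.0, limma-voom (limma 3.58.1), other scalings and filters, a fit of 8 libraries, the mouse number as a block and each library left out.

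Named genes were Zc3h12a, Krt14 and Lyz2, every called gene, further genes by p up to 20 in all, those called in MKO against control, and the 3 of smallest p in each of 32 gene lists. Members and lists were chosen with earlier results of these data known, and 546 of 604 list entries matched a target. Where genes are named outside this rule, they were chosen after their values were seen. Levels of a list are means of log2 CPM (prior count 2) over its tested members. Replicates are separate mice, so p-values measure the spread between animals.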

Additional observations from a re-analysis of the deposited data

Results flagged for a closer look

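In a group of 4 mice, a value was picked out when its gap to the nearest mouse passed Dixon's critical value at the 95% level. Chance picks out about 1 in 20 groups, and 2 of 46 gene groups and 5 of 62 list groups were picked out. EKO mouse 1 was low for the IL-1 and IL-36 family (mean log2 CPM 3.52, others 5.30 to 5.57), for protease inhibitors of the epidermis (3.15, others 6.44 to 6.98) and for sebaceous gland genes (5.73, others 6.89 to 7.12). Plag1 was high in EKO mouse 1 (5.47 CPM, others 3.28 to 3.52) and in EMdKO mouse 3 (9.23 CPM, others 7.14 to 7.29). The B and plasma cell level was high in EMdKO mouse 2 (3.56, others 2.94 to 3.04), and the mast cell and basophil level in EMdKO mouse 3 (4.05, others 3.44 to 3.53).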

How the results depend on the processing

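For EMdKO against EKO, the count of 2 called genes became 9 with DESeq2, 3 with only the 8 libraries compared, and 1 to 3 with a library left out, where 1 was reached without EKO mouse 1, 2 or 3. It was 3 without both EKO mouse 1 and EMdKO mouse 3. For MKO against control, the count of 4 became 112 with DESeq2, 0 with limma-voom and 1 to 5 with a library left out, where 1 was reached without any single control mouse. For the difference of the 2 steps, the count of 0 became 3 with DESeq2 and stayed 0 in every left-out fit. The median of the macrophage list ran from -0.25 to 0.13 with a library left out and was -0.27 without EKO mouse 1 and EMdKO mouse 3 together. The cause of these changes was not tested. Over 141 genes, those of the naming rule and the others in the text, 3477 alternative values kept their direction and side of the threshold, 11 passed it, 4 lost it and 26 turned, in 12 genes. The hair keratin gene Krt84 (1.75) turned to -1.70 with limma-voom and -2.60 without EKO mouse 1 and EMdKO mouse 3, its highest mouse at 80.5 CPM. With limma-voom Casq1 (-0.46) was 0.07, Eno3 (-0.32) 0.17 and Alas2 (0.29) -0.00. Without the same pair of mice, Ryr1 (-0.73) was 0.02, Casq1 0.35, Eno3 0.31, Cd33 (0.37) -0.13 and Col3a1 (-0.08) 0.10, and with the replicate block Slc4a1 (-0.10) was 0.12. With 1 library left out, Krt84 ran from -2.70 (without EMdKO mouse 3) to 2.16, Casq1 from -0.70 to 0.25 (without EKO mouse 1), Eno3 from -0.57 to 0.11 (without EKO mouse 1), Alas2 from -0.02 (without EMdKO mouse 2) to 0.52 and Slc4a1 from -1.75 to 0.62 (without EKO mouse 1). Likewise Cd22 (-0.12) ran from -0.30 to 0.19 (without EKO mouse 2), Col3a1 from -0.43 to 0.04 (without EMdKO mouse 3), Col1a1 (0.19) from -0.02 (without EMdKO mouse 2) to 0.29, H2-D1 (-0.12) from -0.27 to 0.01 (without EKO mouse 3) and H2-K1 (0.17) from -0.01 (without EKO mouse 1) to 0.30. With the mouse number as a replicate block the counts were 2, 4 and 0, and the pairing was not borne out, as same-numbered EKO and EMdKO mice correlated at -0.13, -0.17, 0.17 and 0.40. Genes under a few CPM, such as Marco in EKO, rest on few reads.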
